A study of Mus musculus with 48 samples.

Results

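The clustered protocadherins are the genes of the alpha, beta and gamma clusters, which lie one after another on mouse chromosome 18. Members were the rows of the deposited gene and exon tables whose Ensembl identifier carries a symbol beginning with Pcdha, Pcdhb or Pcdhg in GENCODE M21. These were 24 of 37620 gene rows and 48 of 247845 exon rows. Only the beta cluster had a row for each gene, from Pcdhb1 to Pcdhb22. The whole alpha cluster was 1 gene row (ENSMUSG00000007440, with 13 exon rows), and the whole gamma cluster was 1 gene row (ENSMUSG00000023036, with 11 exon rows). Of 58 identifiers that GENCODE M21 lists under these symbols, 34 had no row of their own.

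The animals were 48 mice of the outbred HS-CC stock (heterogeneous stock-collaborative cross), from lines bred for ethanol preference. All came from selection generation 4, and the labels name no drug, diet or genetic change in any group. There were 12 High preference females, 12 High preference males, 12 Low preference females and 12 Low preference males. From each mouse the nucleus accumbens shell, part of the brain's reward circuit, was collected by laser microdissection, and its poly(A) RNA was sequenced. A preference line is a population, so the mice of a line share ancestors. The sources used here give no family, litter, cage or age.

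Clustered protocadherins are adhesion molecules of the neuronal surface. A neuron switches on a few alternative promoters of each cluster, and cohesin and CTCF bring the chosen promoter to a distant enhancer. Each alpha or gamma messenger joins 1 long variable first exon, which encodes the whole ectodomain, to 3 constant exons that encode a shared cytoplasmic tail. Beta genes have a single coding exon and no constant exons. The C-type isoforms at the end of the alpha and gamma clusters are known to be expressed more uniformly than the others, which are chosen at random in single cells. In tissue RNA from many cells, a low level can mean fewer cells that use a promoter or less RNA in each, and these cannot be told apart.

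Deposited values are the authors' normalised counts, rounded to whole numbers, with column totals between 13579559 and 14561911. Markers of medium spiny neurons, the main striatal cell type, were abundant, and 10 of them passed the filter on low values. Their summed level ran from 98709 to 152272 across mice. Of 5 markers of cortical pyramidal neurons 1 passed the filter on low values, and the group medians of their sum lay between 22 and 33. Single mice stood apart, with a sum of 4813 in 1 Low male and 1995 in 1 High male. A second property also differed between libraries. In 11302 other genes with at least 4 exon rows, the last exon held 53.1% ± 2.61 (SD, n = 48) of all exon counts, with a range of 44.9% to 58.6%. This last-exon share is used below as a measure of how far a library leaned to the 3' end. Its group means were 53.6% in High females, 53.0% in High males, 52.4% in Low females and 53.4% in Low males.

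The beta cluster was read gene by gene. Its 22 genes start between positions 37424652 and 37678007 of chromosome 18 on mm9, and levels are given per kb of RefSeq exon so that genes of different length can be compared. Pcdhb17, near the 3' end, had the highest mean, 78.2 per kb, with a range of 58.7 to 136 over the 48 mice. Pcdhb20, 3 places further on, had 76.5 per kb, with a range of 54.2 to 99.2. The range of Pcdhb20 lay mostly inside that of Pcdhb17, so these neighbours in the order did not differ beyond their spread. Pcdhb9, in the middle of the cluster, followed with 63.5 per kb, and Pcdhb7 with 52.1 per kb.

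The 5' end of the beta cluster was almost silent. Pcdhb1, the first gene, had a mean of 1.03 per kb and was at 0 in 10 of 48 mice. Pcdhb2 had 1.76 per kb and was at 0 in 3 mice. Neither reached 1 ppm of the mean table total (14.06 units of the deposited scale) in any mouse, so these 2 genes were left out of the gene tests and 22 of 24 gene rows were tested. Pcdhb3, the next gene, stood at 34.3 per kb, well above both, with a lowest mouse of 16.1. Pcdhb4 again stood lower, at 5.38 per kb, the lowest of the tested beta genes. At the 3' end, Pcdhb21 had 9.03 per kb and Pcdhb22, the last gene, had 21.1 per kb.

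The order depended on the gene length used. GENCODE M21 gives Pcdhb17 an exonic length of 4660 bases against 3270 in RefSeq, which lowered its level to 54.9 per kb and put it behind Pcdhb20 (73.0) and Pcdhb9 (63.5). Pcdhb14 had 17.8 per kb with RefSeq and 7.05 with GENCODE lengths, and Pcdhb22 had 21.1 and 9.78. Pcdhb1, Pcdhb2, Pcdhb4 and Pcdhb21 were the 4 lowest with either source.

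**Figure D1:**
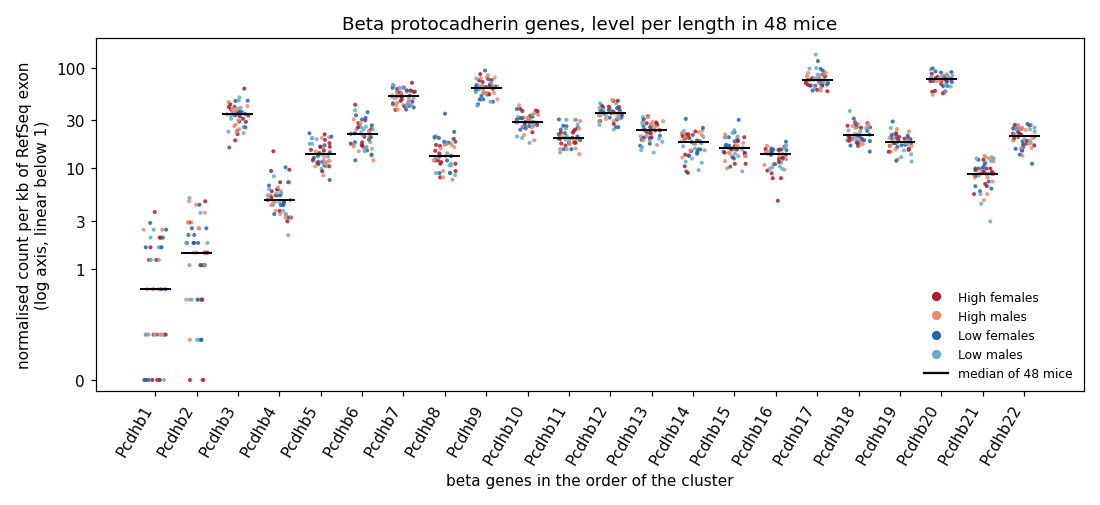
Level of each beta gene as normalised count per kb of RefSeq exon (log axis, linear below 1), in the order of the cluster. Points are mice, coloured by group, and bars are medians of 48 mice. Pcdhb17, Pcdhb20 and Pcdhb9 stand highest, and Pcdhb1 and Pcdhb2 reach 0 in some mice.

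Beta genes also resemble each other in sequence, which bears on how reads were shared among them. The GENCODE sequences of the 40 beta genes and first exons with a row were compared with each other. Isoforms without a row were not searched, so the parts given may be understated. The part of a beta gene made of 50-base words that also occur in another of these was 12.0% for Pcdhb12 and 11.3% for Pcdhb21. That part was 9.52% for Pcdhb11, 8.75% for Pcdhb9, 8.57% for Pcdhb7 and 8.02% for Pcdhb22. It was 2.05% for Pcdhb16, 1.80% for Pcdhb13 and 0% for Pcdhb1. Among beta genes, the neighbours Pcdhb21 and Pcdhb22 shared the most, since 9.49% of the words of Pcdhb21 occur in Pcdhb22. The sources used here do not give the treatment of reads that match more than 1 place. Levels of Pcdhb21, Pcdhb22, Pcdhb11, Pcdhb12, Pcdhb9 and Pcdhb7 are therefore less certain than those of Pcdhb13 or Pcdhb16.

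The alpha and gamma clusters had to be read exon by exon. The exon rows give only a start on mm9, so isoforms were named by comparing the distance from each row to the last constant exon with the same distance in RefSeq and GENCODE. First exons were found for 9 of 14 alpha isoforms and 9 of 22 gamma isoforms. Rows for Pcdha3, Pcdha5, Pcdha6, Pcdha7 and Pcdha8 were not found, nor for 13 gamma isoforms. The alpha rows Pcdha2, Pcdha4 and Pcdhac2 matched to within the annotated first exon, and the others matched exactly. A further alpha row, at 37102039, matched no annotated exon and had a mean of 0.0625.

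Most of the signal of both cluster rows lay in the last constant exon, which every isoform shares. The alpha row had a mean of 1445 and ran from 1158 to 1997, and its last constant exon (start 37344600) held 89.1% ± 3.70 (SD, n = 48) of it. The gamma row had a mean of 6409 and ran from 4020 to 8303, and its last constant exon (start 37999557) held 88.3% ± 4.34. A gene-level value for either cluster is therefore mainly a count of shared 3' sequence, not of any isoform. The same was seen per kb, where the last constant exon had 473 in the alpha cluster, against 44.9 for the summed levels of the 9 measured first exons, a ratio of 10.5. In the gamma cluster the values were 2855 and 234 per kb, a ratio of 12.2. Isoforms without a row are missing from those sums.

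Among the 9 measured alpha first exons, the C-type Pcdhac2, which is known for spacing the axons of serotonin neurons, was highest. Its row had a lowest value of 15, a median of 37.5 and a highest of 176. It was the highest measured first exon of its cluster in 47 of 48 mice, with Pcdha4 highest in the other. Per kb it had 15.4, against 7.40 for Pcdha4 and 5.10 for Pcdha2. The other C-type isoform, Pcdhac1, had 2.75 per kb, within the range of the remaining alpha exons. Pcdha11 and Pcdha1, which is the first exon of the cluster, were lowest at 1.90 and 1.93 per kb, and both were at 0 in at least 1 mouse. Alpha first exons share sequence as well, and here too isoforms without a row were not searched. The part in 50-base words found in another of the 40 compared sequences was 18.1% for Pcdha11, 14.4% for Pcdha1 and 13.8% for Pcdha10. It was 11.7% for Pcdha12, 10.4% for Pcdha4, 9.21% for Pcdha9, 8.73% for Pcdha2 and 0% for Pcdhac1 and Pcdhac2. The part of shared reads in the alpha order was not tested.

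The gamma first exons showed a steeper order. Pcdhgc5, the C-type isoform next to the constant exons, had a lowest value of 70, a median of 325.5 and a highest of 1123. It led the 9 measured gamma first exons in 48 of 48 mice, with 58.7% ± 5.06 of their sum. Per kb it had 139, and Pcdhgc3, known to act on the Wnt regulator Axin1 in growing dendrites, had 31.4. Pcdhga12 followed with 11.2 per kb. Pcdhgc4, the C-type isoform known to be needed for the survival of cortical interneurons, had 9.84 per kb, no higher than Pcdhga9 (10.4) or Pcdhgb6 (10.2). Pcdhga3, the first measured exon of the cluster, had 8.00 per kb, and Pcdhga8 was lowest at 5.67.

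The Pcdhgc5 value carries a limit. No row starts at the first gamma constant exon, which has 59 bases, and GENCODE lists a transcript whose first exon runs from Pcdhgc5 through that constant exon. The Pcdhgc5 row may therefore also hold reads of a constant exon that all gamma isoforms use. The second gamma constant exon, with 89 bases, had a mean of 162 and ran from 39 to 362. How much of the Pcdhgc5 value belongs to the constant exon was not tested. In the alpha cluster all 3 constant exons had rows, and the first and second had means of 19.3 and 21.5, below the 46.5 of Pcdhac2.

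**Figure D2:**
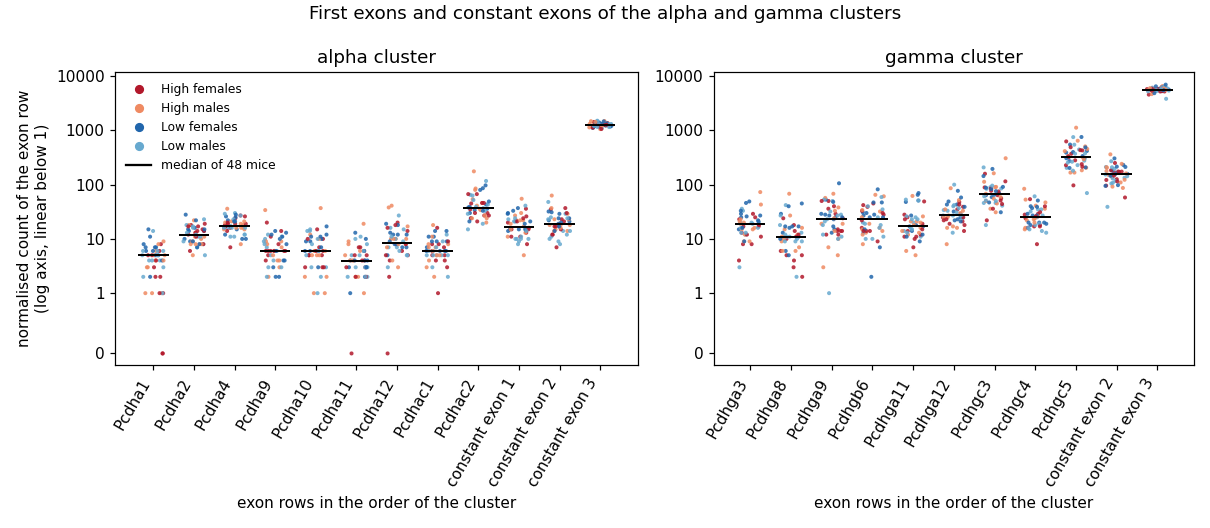
Normalised count of each first exon and constant exon of the alpha cluster (left) and gamma cluster (right), in cluster order, on a log axis that is linear below 1. Points are mice, coloured by group, and bars are medians of 48 mice. The last constant exon of each cluster stands far above every first exon, and its points lie closest together.

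The first exons differed between mice far more than the shared last exon did. The SD between mice of 1 group, on the log2 scale (log2 of the value plus 0.05 ppm, pooled over the 4 groups), was 0.14 for the last alpha constant exon and 0.15 for the last gamma constant exon. It was 0.65 to 1.09 for the 9 gamma first exons and 0.49 to 0.99 for the 9 alpha first exons. Low counts add to that spread, so each row was set beside all exon rows with a mean within 1.5 times of its own. The Pcdhgc5 row had an SD of 0.75, and the 5499 rows of like level had a median SD of 0.21. For Pcdhgc3 the SD was 0.81 against a median of 0.31, and for Pcdhac2 it was 0.74 against 0.38.

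The most variable first exons were Pcdhga9 (SD 1.09, against 0.46 in rows of like level) and Pcdhgb6 (0.96 against 0.47) in the gamma cluster. In the alpha cluster they were Pcdha12 (0.99 against 0.66) and Pcdha10 (0.94 against 0.75). Pcdha1, with a mean of 4.79, had an SD of 0.90 that was close to the 0.87 of its peers. Pcdha11 equalled its peers (0.87 against 0.87), and Pcdha9 was little above them (0.81 against 0.75). Pcdha2 (0.54 against 0.62), Pcdha4 (0.49 against 0.54) and Pcdhac1 (0.66 against 0.77) were steadier than rows of like level. The second gamma constant exon, shared by all gamma isoforms, had an SD of 0.59 against 0.26 in rows of like level, below each of the gamma first exons.

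This spread moved with the last-exon share of the library. The correlation of the 46 tested member exon rows with that share, and with the mean of the pyramidal markers, was computed across 48 mice, which made 92 relations, and p values came from 100000 permutations with Benjamini-Hochberg adjustment over all 92. For Pcdhgc5, Pearson's r was -0.923 and Spearman's rho was -0.901, with adjusted p of 5.41e-05 and 6.13e-05, both from the smallest raw p that these permutations can give, 1e-05. Without the 2 libraries farthest from the median share, r was -0.911. Within the groups r was -0.924 in High females, -0.934 in High males, -0.936 in Low females and -0.926 in Low males. Libraries that leaned less to the 3' end thus had higher Pcdhgc5 values in each of the 4 groups.

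All 9 gamma first exons had a negative r with the share, from -0.923 to -0.657, and r and rho passed an adjusted p of 0.05 for 9 of 9. All 9 alpha first exons were negative too, from -0.824 for Pcdhac2 to -0.282 for Pcdha1, and 7 of 9 passed with both measures. For Pcdhac2, rho was -0.785 with adjusted p of 5.41e-05 for r and 6.13e-05 for rho, and r within the groups lay between -0.894 and -0.693. The second gamma constant exon had r = -0.894 and rho = -0.868, with the same adjusted p values in these permutations. In the last gamma constant exon r was -0.642 (rho -0.590; adjusted p 9.68e-05 and 1.08e-04, permutation), and in the last alpha constant exon it was -0.252 (rho -0.178; adjusted p 0.184 and 0.331, permutation).

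Beta genes, which have no intron in their coding part, had smaller correlations with the share, a difference that was not tested. The median r over their 23 tested exon rows was -0.191, with a range of -0.591 (Pcdhb2) to 0.175 (Pcdhb18), and 5 of 23 passed with both measures. The longer row of Pcdhb20 had r = -0.049 and rho = -0.0488, with adjusted permutation p of 0.790 and 0.819. Over all 148532 tested exon rows the median r was -0.275, and 16.8% of rows had r below -0.6. Rows with a mean within 1.5 times that of Pcdhgc5 had a median r of 0.235, and 0.892% of them had a lower r than Pcdhgc5. For Pcdhgc3 the median of such rows was -0.239 with 2.31% lower, and for Pcdhac2 it was -0.343 with 6.64% lower. Pcdhga11 stood less apart, with a median of -0.393 and 21.9% lower. Pcdha1 (r = -0.282) and Pcdha2 (-0.325) were no more negative than such rows, which had medians of -0.315 and -0.386. For these 2 exons 54.4% and 56.5% were lower. The part lower was 31.0% for Pcdha9, 27.3% for Pcdha4 and 21.5% for Pcdhac1. It was 4.62% for Pcdha12, 4.53% for Pcdha10 and 2.44% for Pcdha11. How many of all exon rows would pass the adjusted p was not computed. The share was computed without any member row.

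When the share was added to the fit as a term, the SD between mice fell from 0.75 to 0.29 for Pcdhgc5, from 0.81 to 0.37 for Pcdhgc3 and from 0.74 to 0.43 for Pcdhac2. In variance, the median reduction was 55.4% over the gamma first exons, 36.1% over the alpha first exons and 1.05% over the beta rows. Over all 148532 tested exon rows the median SD fell too, from 0.660 to 0.575. Pcdha1 lost 4.06% and Pcdhga8 lost 41.7%. The gene rows of both clusters also moved with the share. The gamma row had r = -0.831 and lost 68.0%, and 2.59% of genes of like level had a lower r. The alpha row had r = -0.547 and lost 28.0%, with 16.3% of such genes lower. What sets the share of a library was not tested.

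**Figure D3:**
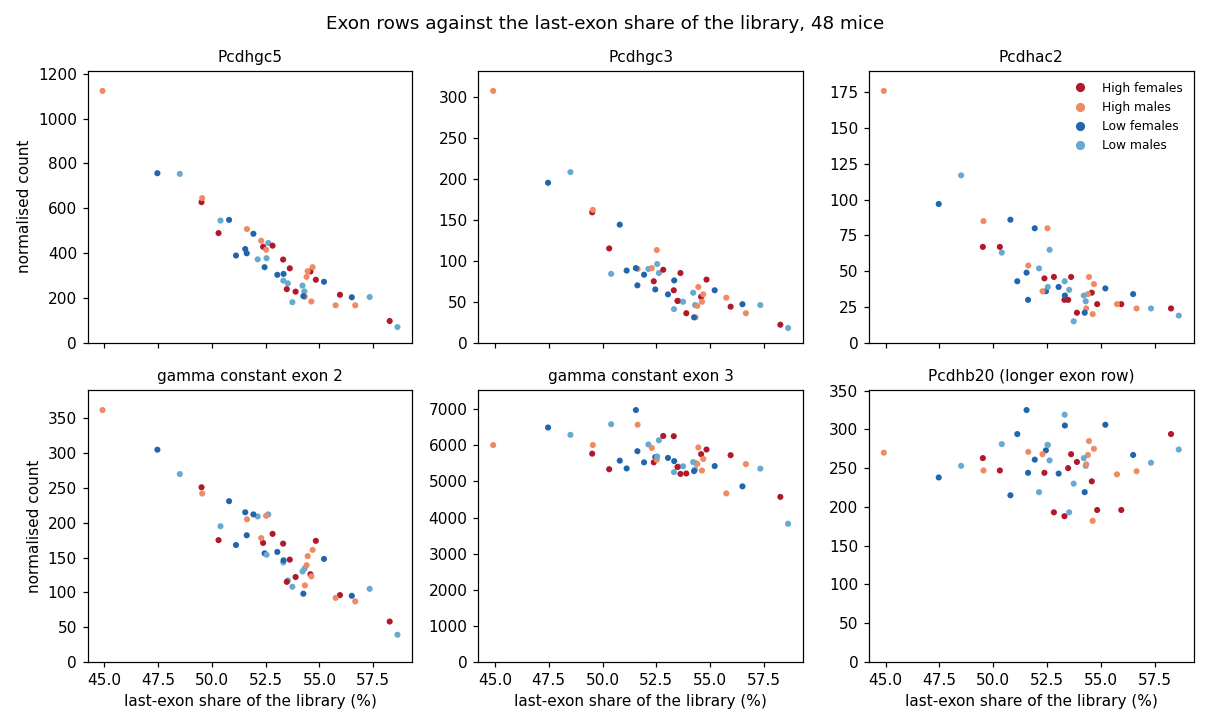
Normalised count of 6 exon rows (vertical axes, from 0) against the last-exon share of the library in percent, for 48 mice coloured by group. Pcdhgc5, Pcdhgc3, Pcdhac2 and gamma constant exon 2 fall as the share rises in every group, gamma constant exon 3 falls less, and the longer row of Pcdhb20 shows no such slope (r = -0.049).

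Cortical markers moved with fewer rows. With the pyramidal marker mean, 3 of 9 gamma first exons and 0 of 9 alpha first exons passed with both measures. The share of all exon rows that would pass was not computed, so these counts are not called particular to the members. The highest was Pcdhga11, with r = 0.498 and rho = 0.536 (adjusted permutation p 0.00131 and 4.60e-04), which dropped to r = 0.366 without the 2 libraries farthest from the median. Within the groups its r was 0.458 in High females, 0.626 in High males, 0.339 in Low females and 0.670 in Low males. The part of cortical tissue in these values was not tested.

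Among the 20 tested beta genes, the pooled SD between mice of a group had a median of 0.28 on the log2 scale (value plus 0.5 ppm), against 0.31 for the 6116 tested genes with a mean of 20 to 300. Pcdhb6 was most variable, with an SD of 0.41 and values from 43 to 154. Pcdhb4 followed with an SD of 0.38 and values from 8 to 55. Pcdhb20 was steadiest, with an SD of 0.19 and values from 184 to 337.

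Neighbouring beta genes varied together. For the 19 pairs of tested neighbours, deviations from the group mean had a positive r across the 48 mice in all 19, with a median of 0.438 and a range of 0.087 to 0.610. Benjamini-Hochberg adjusted permutation p over the 19 pairs was below 0.05 for r in 16 and for both r and rho in 13. These permutations ask only whether a pair is correlated at all. Pairs of genes outside the clusters were not computed, so the counts are not shown to be particular to this cluster. Pcdhb9 and Pcdhb10 had the highest r, 0.610, with rho 0.631 (adjusted p 1.90e-04 for both, permutation) and r = 0.662 without the 2 libraries farthest from the median of Pcdhb9. Within the groups that pair had r between 0.237 (High females) and 0.823 (Low males). Pcdhb3 and Pcdhb4 had the lowest r, 0.087 (rho 0.068, adjusted permutation p 0.557 and 0.644).

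By description only, the median r was 0.283 for 35 pairs that are 2 to 3 places apart, 0.272 for 58 pairs at 4 to 7 places and 0.206 for 78 pairs at 8 or more. The signs did not hold everywhere: r was positive in every group for 12 of the 19 neighbour pairs. These pairs share mice and libraries, and some share sequence, as given above for Pcdhb21 and Pcdhb22 (r = 0.540, rho 0.487, adjusted permutation p 2.85e-04 and 0.00203). The part of shared reads in these values was not tested.

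The first comparison asked whether the High and Low preference lines differ in these genes. None of the 22 tested gene rows passed an adjusted p of 0.05 in limma, where 0.28% of 15350 genes did. High was above Low in 9 rows and below in 13, with a median log2 difference of -0.00, and 48.5% of all tested genes were higher in High. Unadjusted p was below 0.05 for 2 of 22 members, close to the 9.07% of all genes. The alpha row differed by -0.00 (SE 0.05) and the gamma row by 0.00 (SE 0.06) on the log2 scale.

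The 2 beta genes with a small unadjusted p were Pcdhb13 and Pcdhb9. Pcdhb13 had values of 63, 93.5 and 122 (lowest, median and highest of 24 mice) in High and 53, 78 and 120 in Low. The lines overlapped over nearly their whole range, though 19 of 24 High mice were above the Low median. The log2 difference was 0.19 (SE 0.08), with p = 0.0155 and an adjusted p of 0.374 in limma. Pcdhb9 had 149, 199.5 and 266 in High and 129, 184.5 and 289 in Low, and 16 of 24 High mice were above the Low median. Here the highest single mouse was a Low animal. Its log2 difference was 0.16 (SE 0.07), with p = 0.0381 and an adjusted p of 0.501.

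By position, Pcdhb9, Pcdhb10, Pcdhb12, Pcdhb13 and Pcdhb14 had positive estimates between 0.10 and 0.19, while Pcdhb15, Pcdhb16 and Pcdhb17 had negative ones between -0.17 and -0.11. Pcdhb11, which lies between Pcdhb10 and Pcdhb12, had -0.10. These genes were picked out after their values were seen, and 2 of these 9 had an unadjusted p below 0.05.

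Markers of other cell types were read for the same contrast. For oligodendrocytes, 8 of 8 tested markers were lower in High, 7 with an unadjusted p below 0.05 and 0 called, and the summed level of the list had group medians of 15640 in High females, 16195 in High males, 19726 in Low females and 17344.5 in Low males. Of 7 interneuron markers 3 were higher and 4 lower in High, and 1 was called, Sst, the peptide of somatostatin neurons (log2 difference -0.40, adjusted p 0.0233 in limma). All 7 astrocyte markers were higher in High, with 1 at an unadjusted p below 0.05 and 0 called. All 5 tested markers of choroid plexus, ependyma and meninges were higher in High too, with 2 at an unadjusted p below 0.05, 0 called and a median of 0.26. The part of these cell types in the values of Pcdhb9 and Pcdhb13 was not tested.

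**Figure D4:**
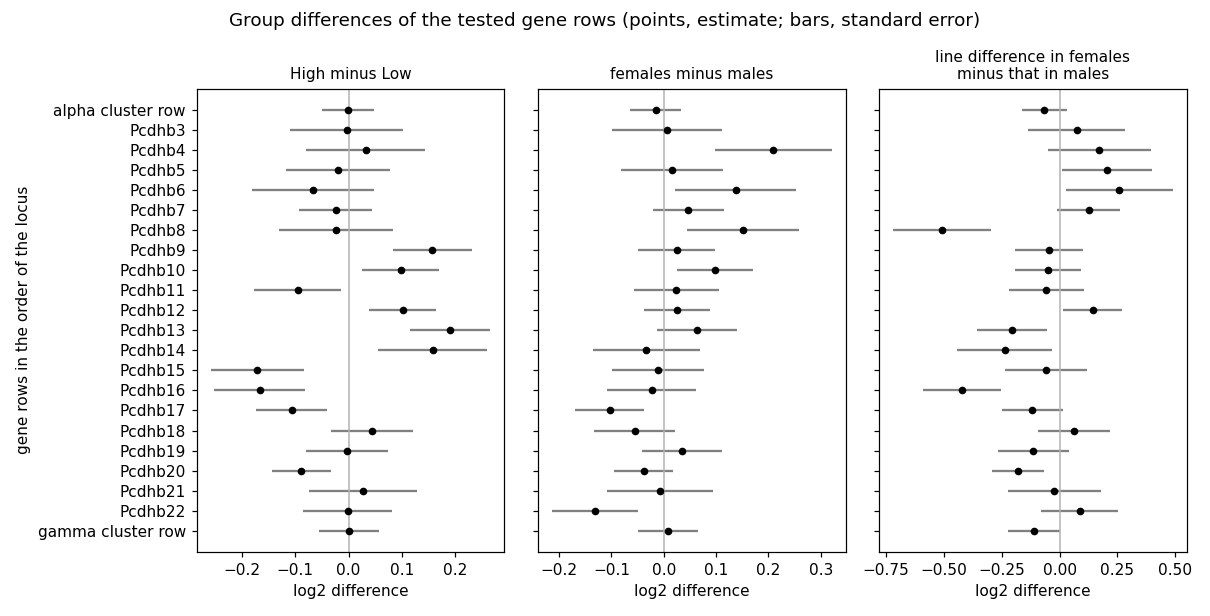
Log2 difference of each tested gene row in the order of the locus, for High minus Low, for females minus males, and for the line difference in females minus that in males. Points are limma estimates from 48 mice and bars are standard errors. The alpha and gamma rows lie near 0 for line, and Pcdhb8 and Pcdhb16 have the lowest interaction estimates.

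Within each gender the line difference was also small. In females 0 of 22 gene rows were called, against 0.0261% of all genes, and 2 of 22 had an unadjusted p below 0.05, against 4.68%. In males 0 of 22 were called, against 0% of all genes, and 1 of 22 had an unadjusted p below 0.05, against 6.93%. Pcdhb16 had 25, 63.5 and 87 in High females and 58, 79.5 and 97 in Low females. Of 12 High females 5 lay below every Low female, and the others overlapped with them. The log2 difference was -0.38 (SE 0.12), with p = 0.00286 and an adjusted p of 0.638 in limma. Pcdhb20 had 190, 252.5 and 298 in High females and 224, 267 and 337 in Low females, a difference of -0.18 (SE 0.08, p = 0.0282, adjusted p 1.00 in limma). In males, Pcdhb13 had 63, 98 and 119 in High and 53, 74 and 120 in Low, a difference of 0.29 (SE 0.11, p = 0.00858, adjusted p 0.529 in limma).

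Whether the line difference depends on gender was tested directly. The interaction, the line difference in females minus that in males, was called for 0 of 22 gene rows and for 0% of all genes. Its unadjusted p was below 0.05 in 2 of 22 members, against 2.4% of all genes. Pcdhb8 had 19, 29.5 and 46 in High females, 21, 42.5 and 82 in Low females, 19, 34 and 49 in High males and 18, 25.5 and 47 in Low males. Females were lower in High and males were higher in High, by an interaction of -0.51 (SE 0.21, p = 0.0210, adjusted p 1.00 in limma), with all 4 groups overlapping. For Pcdhb16, males had 51, 70 and 88 in High and 52, 68 and 89 in Low, and with the female values above the interaction was -0.42 (SE 0.17, p = 0.0164, adjusted p 1.00 in limma).

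**Figure D5:**
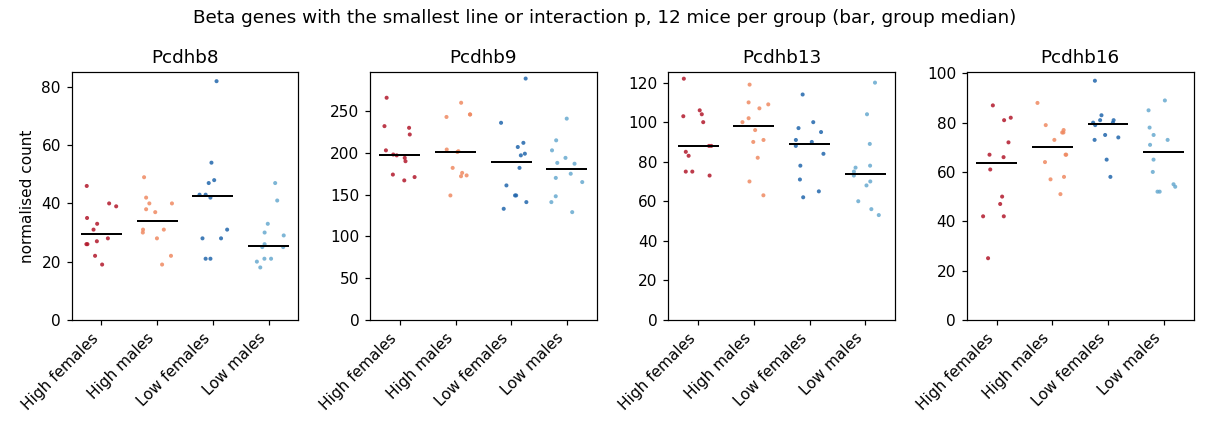
Normalised count of Pcdhb8, Pcdhb9, Pcdhb13 and Pcdhb16 in each mouse (points) by group, with the group median of 12 mice as a bar and axes from 0. All groups overlap, and the lowest Pcdhb16 value, 25, is a High female.

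Gender was compared next. None of the 22 gene rows was called between females and males, against 0.0782% of all genes, and 0 of 22 had an unadjusted p below 0.05, against 4.21%. The smallest p belonged to Pcdhb4, which had a difference of 0.21 (females minus males, SE 0.11, p = 0.0677, adjusted p 0.982 in limma). Females were above males in 13 of 22 rows, with a median log2 difference of 0.01.

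Single exons were then compared between the lines. None of 46 tested member rows was called, against 0.00875% of all exon rows, and 4 had an unadjusted p below 0.05, against 4.91%. Besides the rows of Pcdhb9 and Pcdhb13, these were the first exons of Pcdha1 and Pcdhga12. Pcdha1 had 0, 3.5 and 9 in High and 1, 5.5 and 15 in Low, and 5 of 24 High mice were above the Low median. Its log2 difference was -0.77 (SE 0.26, p = 0.00406, adjusted p 0.633 in limma), at a level of a few counts per mouse, and it was -1.04 and -0.47 with 0.01 and 0.2 ppm added in place of 0.05. Pcdhga12 had 8, 25 and 86 in High and 13, 32.5 and 100 in Low, a difference of -0.38 (SE 0.18, p = 0.0436, adjusted p 1.00 in limma). Both overlapped between the lines over most of their range.

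Within females, 0 of 46 exon rows were called for line, against 0.000673% of all exon rows, and 6 had an unadjusted p below 0.05, against 4.27%. Within males 0 were called, against 0%, and 1 had an unadjusted p below 0.05, against 4.31%, namely Pcdhb13. The 6 in females were Pcdha1, Pcdhac1, Pcdhb16, the longer row of Pcdhb20, Pcdhga3 and Pcdhga8, each lower in High. The mean last-exon share was higher in High than in Low females (53.6% and 52.4%). Across the 48 mice its r was -0.809 with Pcdhga3, -0.657 with Pcdhga8 and -0.550 with Pcdhac1. With Pcdhb16, Pcdha1 and the longer row of Pcdhb20 it was -0.3455, -0.282 and -0.049. Pcdha1 had 0, 2.5 and 8 in High females and 2, 6.5 and 15 in Low females, a difference of -1.27 (SE 0.36, p = 9.21e-04, adjusted p 0.996 in limma). In males it had 1, 4 and 9 in High and 1, 4.5 and 14 in Low, a difference of -0.27 (SE 0.36, p = 0.464, adjusted p 0.999 in limma). The groups overlapped in both genders. The interaction for Pcdha1 was -1.004 (SE 0.51, p = 0.0555, adjusted p 0.986 in limma), so the line difference of Pcdha1 was not shown to depend on gender. Pcdhac1 had 1, 5.5 and 16 in High females and 6, 9 and 14 in Low females, a difference of -0.60 (SE 0.28, p = 0.0350, adjusted p 0.996 in limma).

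The constant exons gave no line difference beyond their error. In the alpha cluster the estimates for exons 1, 2 and 3 were 0.05 (SE 0.18), 0.07 (SE 0.17) and 0.00 (SE 0.04). In the gamma cluster those for exons 2 and 3 were -0.03 (SE 0.16) and 0.00 (SE 0.04).

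For gender, 0 of 46 exon rows were called, against 0.0646% of all exon rows, and 0 had an unadjusted p below 0.05, against 3.37%. For the interaction, 0 were called, against 0% of all rows, and 4 had an unadjusted p below 0.05, against 3.66%. These 4 were Pcdhb16, the longer row of Pcdhb8, Pcdhga3 and Pcdhga8. Pcdhga3 had 4, 15 and 29 in High females, 9, 25.5 and 49 in Low females, 9, 17.5 and 73 in High males and 3, 17.5 and 36 in Low males. High females were lower than Low females at the median, and the males had equal medians. The interaction was -1.01 (SE 0.42, p = 0.0209, adjusted p 0.986 in limma).

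Pcdhga8 had 2, 8 and 24 in High females, 5, 16.5 and 45 in Low females, 6, 11 and 68 in High males and 2, 11 and 42 in Low males. Its interaction was -1.06 (SE 0.52, p = 0.0456, adjusted p 0.986 in limma). All 9 gamma first exons had a negative interaction, with a median of -0.48, against -0.07 over all exon rows. The mean last-exon share was higher in High than in Low females (53.6% and 52.4%). In males the mean was lower in High than in Low (53.0% and 53.4%), but the median was higher (54.4% and 53.4%). The lowest High male library stood at 44.9%, and the SDs within groups ran from 2.33 to 3.19. A group difference in the share was not tested. With the share as a term in the fit, the median over the gamma first exons was -0.05, with 5 of 9 negative, and the interaction was -0.63 for Pcdhga3 (p = 0.0216) and -0.69 for Pcdhga8 (p = 0.0950) in limma.

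Exon usage asks whether an exon of a gene differs from the rest of that gene. Neither cluster row was called between lines, where 0.51% of genes were, or between genders, where 0.17% were. The alpha row had a Simes p of 0.0148 for line (adjusted p 0.588 in limma's diffSplice), which became 0.868 when low exon rows, Pcdha1 among them, were left out by a filter of 1 ppm. The gamma row had a Simes p of 0.570 for line and 0.526 for gender.

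The spread between mice was compared between groups through absolute deviations from the group median. None of the 22 gene rows was called for line, against 0.0586% of all genes, for the line difference in females, against 0.0456%, or for gender, against 0%. For line, 1 of 22 had an unadjusted p below 0.05, against 3.97% of all genes: Pcdhb17 ran from 192 to 295 in High and from 195 to 445 in Low, with p = 0.0404 and an adjusted p of 0.998 in limma. The 445 was the Low male with the highest pyramidal markers, and without the 3 libraries highest in those markers p was 0.0964 (adjusted p 1.00 in limma). Across the 48 mice, the exon row of Pcdhb17 had r = 0.433 and rho = 0.110 with the pyramidal marker mean (adjusted permutation p 0.0151 and 0.563), and r = 0.159 without the 2 libraries farthest from the median. In females, 2 of 22 did, against 2.57%. Pcdhb16 deviated more in High than in Low females (p = 0.00111, adjusted p 0.999 in limma), and Pcdhb22 deviated less, with 46 to 83 in High and 34 to 85 in Low (p = 0.0279, adjusted p 0.999 in limma). For gender, 1 of 22 did, against 3.87%, namely Pcdhb21, with 15 to 33 in females and 8 to 36 in males (p = 0.0296, adjusted p 0.985 in limma).

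Genes that act with the clustered protocadherins were read from lists, and none of their tested members was called for line in limma. Over all tested genes 0.28% were called, 9.07% had an unadjusted p below 0.05 and 48.5% were higher in High, and nothing is called particular to a list here. Of 14 regulators of promoter choice, 11 were higher and 3 lower in High, with 1 at an unadjusted p below 0.05. That was Pds5b, a cohesin cofactor, with means of 2153 ± 272 (SD, n = 24) in High and 1975 ± 224 in Low and a log2 difference of 0.12 (adjusted p 0.368). Smc3, a core cohesin subunit, differed by 0.08 on the log2 scale (adjusted p 0.606), and Ctcf by 0.01. Of 12 genes for DNA methylation and silencing, 3 were higher and 9 lower, with 0 at an unadjusted p below 0.05. The smallest p values were those of Tet1, which oxidises methylcytosine (0.10, adjusted p 0.623), and Ehmt2, a histone methyltransferase (-0.07, adjusted p 0.773).

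Of 17 intracellular partners and kinases, 9 were higher and 8 lower. Prkca, a member of the protein kinase C family, which phosphorylates the gamma constant domain, had means of 959 ± 148 in High and 873 ± 114 in Low (SD, n = 24), a difference of 0.13 with an adjusted p of 0.435. Abi2, a subunit of the WAVE complex that remodels actin, differed by 0.04 (adjusted p 0.731). Of 8 proteases and gamma-secretase subunits, 5 were higher and 3 lower, and 2 had an unadjusted p below 0.05. These were Aph1b, with means of 408 ± 52.0 and 361 ± 57.0 (difference 0.18, adjusted p 0.247), and Psen2 (0.13, adjusted p 0.436), both of which belong to gamma-secretase, the enzyme that releases the cytoplasmic tail.

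Of 23 tested neighbours of the locus, 8 were higher and 15 lower, with 2 at an unadjusted p below 0.05. These were Cd14, a receptor for bacterial lipopolysaccharide (0.33, adjusted p 0.376), and Tmco6 (-0.13, adjusted p 0.435). Of 10 protocadherins outside the clusters, 7 were higher and 3 lower, with 0 at an unadjusted p below 0.05, and Pcdh18 (0.23, adjusted p 0.594) and Pcdh20 (0.21, adjusted p 0.659) had the smallest p values. Over the 6 lists the medians ran from -0.02 to 0.05, beside a median of -0.00 for all tested genes.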

How the data were processed

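Poly(A) RNA of the nucleus accumbens shell was sequenced from 48 mice, with 1 library each. The deposited values were treated as scores, since the tables' names call them normalised and they are whole numbers: the authors had scaled and rounded counts for each gene and exon. The submitters' processing notes name STAR 2.4.0, CASAVA and FastQC, along with edgeR 3.4.2, R 3.0.2 and build mm9. The sources used here do not give the counter, the annotation, the strand setting, the scaling method or the treatment of reads with several matches, so overlapping genes cannot be told apart. Because the values are not raw counts, no count model was fitted, and no counting interval was given.

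Tests used limma 3.58.1 (R 4.3.3) on log2(value + 0.5 ppm) for the 15350 genes that reached 1 ppm in 12 or more libraries. For the 148532 exon rows that reached 0.1 ppm in as many, 0.05 ppm was added. The fit had 1 mean per group and all 48 libraries, with Benjamini-Hochberg adjustment over all tested rows and calls at an adjusted p under 0.05. Fold changes of low rows are understated on this scale. Exon usage was tested with diffSplice, and spread with limma on absolute deviations. The fits were tested on simulated data drawn around rows of higher mean. How well they find changes in low rows, such as most alpha first exons, was not tested. Replicate numbers only name mice and pair none, and each p value rests on the variation among the mice sampled.

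Members and lists were chosen with earlier results of these data known. Members named with values were, per cluster, the 3 highest and 2 lowest per kb, the C-type isoforms, both ends, the 2 most variable, those with an unadjusted p under 0.05, and every constant exon. From each gene list, called members or else at most 2 with the smallest line p were named; Ctcf and the position run in the line comparison were added after values were seen. Alternatives changed the pseudocount, filter, scaling, weights, trend and libraries. Using the last-exon share as a term, leaving out the 3 libraries highest in pyramidal markers for exon rows and spread, and all alternatives for exon rows within a gender and for spread in females were chosen after seeing the data. Printed positions come from the exon table (mm9), and none was converted between builds.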

Additional observations from a re-analysis of the deposited data

How the results depend on the processing

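No member was called for line, gender or interaction among genes or exons, for exon usage, or for spread, under any alternative tried. The 26 results named for an unadjusted p kept their direction in all 135 alternative values, with adjusted p of 0.171 or more in limma. Counts of members at an unadjusted p under 0.05 moved more. For genes, line went from 2 to 4 with library weights, gender from 0 to 1 with weights or without the 3 libraries highest in pyramidal markers, and the interaction from 2 to 1 with a filter of 5 ppm. For exon rows, gender went from 0 to 2 without those 3 libraries. With the last-exon share as a term, exon counts went from 0 to 1 for gender, from 4 to 6 for line and from 1 to 3 for line in males. The interaction median of the gamma first exons moved from -0.48 to -0.05 with the last-exon share as a term, and that of the alpha first exons from -0.25 to 0.13. Without those 3 libraries, the gamma interaction median was -0.40, and the gamma first exons higher in females rose from 7 to 9 of 9. The line split of 9 higher and 13 lower became 12 and 10 with weights or with the share. No paired analysis was possible because the replicate numbers used here follow accession order, and the labels tie no mice together. Isoforms without an exon row, exon ends and reads shared between members limit these values, and differences of Pcdhb1, Pcdhb2 and Pcdha1 rest on a few counts.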
